A study of Mus musculus with 11 samples.

Results

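The genes described here are 10 mouse Fc receptors and Fc receptor-like genes: Fcgr2b, Fcgr1, Fcgr3, Fcgr4, Fcer1g, Fcer2a, Fcrl1, Fcrl5, Fcrla and Fcmr. They were chosen by gene symbol, and 9 of the 10 had a row among the 10885 genes of the table; Fcgr1, the high-affinity IgG receptor, was not analysed here. RNA was measured by RNA-seq in dissociated whole-tissue cells of lymph node (LN) and spleen from 6 mice. The KI group (mice 5 and 6) had BCL2 inserted by knock-in at the kappa locus (Igk-BCL2), and the Tg group (mice 3 and 4) carried BCL2 as a transgene under the heavy chain 3' regulatory region (3'RR-BCL2); the controls were wild type (Wt, mice 1 and 2). Both insertions use immunoglobulin control elements, which are active in B lineage cells. All 6 mice had received sheep red blood cells intraperitoneally over 3 months, with tissue taken 1 month after the third injection, so every group was an immunised one. Each group held 2 libraries except spleen Tg, which held 1 because mouse 3 gave LN only, and p-values therefore rest on very few animals.

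Fc receptors bind the constant part of antibodies and connect antibody already made to the cells that make it or act on it. Receptors such as Fcgr3 and Fcgr4 signal through the FcR gamma chain, Fcer1g, whose activation motif (ITAM) recruits Syk, whereas Fcgr2b carries an inhibitory motif (ITIM) that recruits the phosphatase SHIP1 and is the main Fc gamma receptor of B cells. Fcer2a (CD23), the low-affinity IgE receptor, marks follicular B cells, Fcmr binds IgM, and the Fc receptor-like genes Fcrl1, Fcrl5 and Fcrla are expressed mainly in B cells.

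The libraries held 11128568 to 21067988 reads in LN and 18994455 to 24110325 reads in spleen over the genes of the table. Values are the authors' normalised signal, which is read counts divided by 1 factor per library. Every gene of the table reached 109 in at least 1 library, and Fcgr3 and Fcgr4 did so in spleen but not in LN. Immunoglobulin genes took 6.77 to 9.46% of the signal in KI LN, 0.823 to 0.875% in Tg LN and 0.662 to 0.751% in Wt LN, and in spleen 5.25 to 8.23% in KI, 2.49% in Tg and 1.90 to 2.18% in Wt. The row for mouse Bcl2 lay between 1246 and 1664 in the 4 KI libraries, between 2065 and 3171 in the 3 Tg libraries and between 2338 and 2716 in the 4 Wt libraries; the labels do not say whether the inserted BCL2 is of mouse sequence, so this row does not check the genotype labels. Plasma cell markers rose in KI against Wt for 12 of 12 genes in LN and 10 of 12 in spleen, and germinal centre markers for 10 of 11 in LN and 5 of 11 in spleen. T cell markers fell in KI for 13 of 14 genes in LN and 12 of 14 in spleen. By the same limma test, 13.8% of all genes were called higher and 12.2% lower in KI LN, and 7.63% and 9.21% in KI spleen. These are bulk tissues, so fewer cells of a type and less RNA per cell cannot be told apart for any gene below.

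Promoter windows of 4 of the genes are shown because their RNA behaved differently in KI tissue. Fcgr2b and Fcrla were called higher in both tissues, and Fcer2a was called lower in LN. Fcgr3, a gene similar to Fcgr2b and on the same chromosome, was below Wt without passing the test. Each window is the 250 bases before an annotated start, from RefSeq on build GRCm38.p6, and all 4 lie on the minus strand: Fcgr2b at chr1:170976072-170976321, Fcrla at chr1:170927584-170927833, Fcgr3 at chr1:171059404-171059653 (the more upstream of its starts) and Fcer2a at chr8:3690862-3691111 (the middle of 3 annotated starts, shown because it is the one that holds a searched motif). Capitals mark matches, on either strand, to the PU.1 core GAGGAA (or TTCCTC), the octamer ATGCAAAT, the STAT6 form TTCNNNNGAA or the EBF core CCCNNGGG.
Fcgr2b: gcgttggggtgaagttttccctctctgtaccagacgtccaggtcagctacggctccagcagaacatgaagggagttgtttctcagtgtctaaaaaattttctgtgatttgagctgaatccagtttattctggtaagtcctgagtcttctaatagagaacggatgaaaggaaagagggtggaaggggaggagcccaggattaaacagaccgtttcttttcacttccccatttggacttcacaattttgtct
Fcrla: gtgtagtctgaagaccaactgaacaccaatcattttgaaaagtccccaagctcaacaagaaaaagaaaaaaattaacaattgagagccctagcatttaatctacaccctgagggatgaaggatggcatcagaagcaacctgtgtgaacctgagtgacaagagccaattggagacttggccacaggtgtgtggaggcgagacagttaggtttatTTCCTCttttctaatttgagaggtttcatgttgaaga
Fcgr3: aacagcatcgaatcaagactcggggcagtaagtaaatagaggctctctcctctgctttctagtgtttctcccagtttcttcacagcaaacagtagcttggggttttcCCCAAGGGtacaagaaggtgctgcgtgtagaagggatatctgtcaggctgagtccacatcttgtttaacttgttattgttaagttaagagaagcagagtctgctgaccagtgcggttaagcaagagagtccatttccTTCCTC
Fcer2a: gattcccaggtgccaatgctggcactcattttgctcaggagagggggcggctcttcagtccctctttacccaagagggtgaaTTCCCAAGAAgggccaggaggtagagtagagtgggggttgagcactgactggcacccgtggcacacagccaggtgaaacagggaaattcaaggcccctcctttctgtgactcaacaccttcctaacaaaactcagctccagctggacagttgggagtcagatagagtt
Counting every annotated start of a gene, the PU.1 core occurred in 5 of the 9 measured genes (Fcgr3, Fcgr4, Fcrl1, Fcrla and Fcmr), against 23.3% of 32851 mouse promoter windows of the same length. The STAT6 form occurred in Fcer2a alone among the 9, against 5.85% of all windows, and the EBF core in Fcgr3 alone, against 11.8%. The octamer, present in 1.60% of all windows, was in none of the 9, and the Fcgr2b window held none of the 4 motifs. The counts are per gene and the shares per window, so Fcgr3 and Fcer2a, with several starts, had more windows in which a match could occur. These are matches of letters in a fixed window and do not show that a factor binds there.

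Levels can be ordered between genes after division by exon length, taken as all annotated exons in GENCODE M21. In spleen the median normalised signal per kb was highest for Fcmr (5836), then Fcer2a (2269), Fcrla (1707), Fcrl1 (945), Fcer1g (598), Fcgr2b (371), Fcrl5 (158), Fcgr3 (134) and Fcgr4 (116). Across the 5 spleen libraries the ranges of Fcmr (4412 to 7323), Fcer2a (1724 to 2598) and Fcrl1 (865 to 993) did not overlap one another, whereas Fcrla (1441 to 2487) overlapped Fcer2a, Fcgr2b (300.5 to 703) overlapped Fcer1g (579 to 1218), which also overlapped Fcrl1. Fcrl5, Fcgr3 and Fcgr4 overlapped one another, and Fcgr4 (79.9 to 712) reached into the ranges of Fcgr2b and Fcer1g. In LN the order began in the same way, with medians per kb of 3985 for Fcmr, 2030 for Fcer2a, 1164 for Fcrla and 620 for Fcrl1. Fcgr2b (220.5) then stood above Fcer1g (183), and Fcrl5 (36.8), Fcgr3 (32.2) and Fcgr4 (5.56) were lowest. The order was the same in both tissues when each gene was divided by its longest coding transcript instead. These are medians over genotypes, and single libraries departed from the order. By exon length, Fcrla per kb was above Fcer2a in all 4 KI libraries (1599 against 1153 and 1429 against 820 in LN, 2304 against 1996 and 2487 against 2269 in spleen). Divided by the longest coding transcript, Fcrla stayed above Fcer2a in both KI LN libraries. On that scale it was below Fcer2a in both KI spleens (2395 against 2753 and 2585 against 3129). In the Tg spleen Fcgr4 per kb of exon (712) was above Fcgr2b (371).

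**Figure D1:**
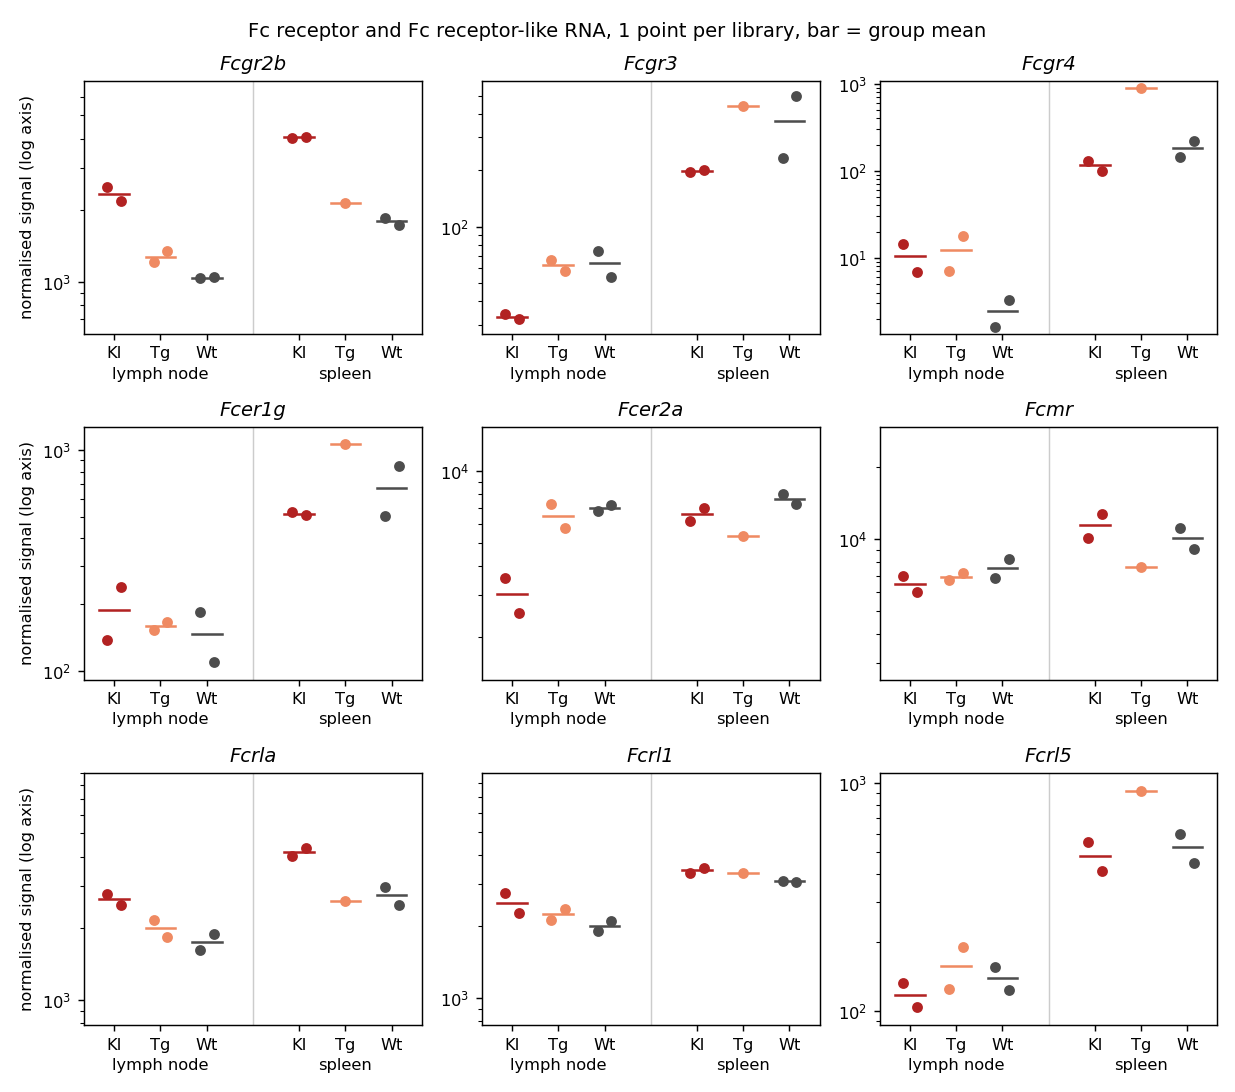
Normalised signal (log axis) of the 9 measured genes, with 1 point per library, bars for group means, and LN to the left of spleen in each panel. Fcgr2b in the 4 KI libraries lies above every Tg and Wt library of the same tissue, while Fcer2a is lowest in the 2 KI LN libraries (3564 and 2535).

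The comparison of KI with Wt asks how BCL2 at the kappa locus goes with Fc receptor RNA. Of the 9 genes, 3 were called higher in KI LN (Fcgr2b, Fcrla and Fcgr4) and 1 lower (Fcer2a), where 13.8% of all 10885 genes were called higher and 12.2% lower. In KI spleen, 2 were called higher (Fcgr2b and Fcrla) and 0 lower, against 7.63% and 9.21% of all genes. A call is a limma adjusted p under 0.05, with Benjamini-Hochberg adjustment over all genes. The median log2 difference of the 9 genes was 0.32 in LN and -0.12 in spleen, against -0.02 and 0.01 for all genes. When the values were rescaled without immunoglobulin and haemoglobin genes, which moves the median of all genes by 0.13 in LN and 0.09 in spleen, the calls over all genes were 2066 higher and 879 lower in LN, against 1502 and 1331 as deposited. In spleen they were 1427 and 816, against 830 and 1003, so small differences are read relative to that shift.

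Fcgr2b, the inhibitory IgG receptor, was about 2.2 times as abundant in KI as in Wt in both tissues. It measured 2497 and 2182 in KI LN, 1211 and 1342 in Tg LN, and 1037 and 1045 in Wt LN. In spleen it measured 4012 and 4072 in KI, 2147 in Tg, and 1855 and 1740 in Wt. No KI library overlapped a Tg or Wt library of its tissue, and the Tg values lay between those of KI and Wt. The log2 difference of KI from Wt was 1.16 ± 0.10 (SE, n = 2 against 2) in LN, a fold of 2.24 with limma adjusted p = 5.49e-05. In spleen it was 1.17 ± 0.10, a fold of 2.25 with limma adjusted p = 0.000207. The KI effect in LN minus that in spleen was -0.00 ± 0.15, with a 95% interval of -0.33 to 0.32, so a difference between tissues of up to about that size was not detectable. KI also exceeded Tg in LN, by 0.87 ± 0.10 (limma adjusted p = 0.000351).

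Fcrla, an intracellular Fc receptor-like protein of B cells, rose in the same comparisons by about 1.5-fold. It measured 2791 and 2493 in KI LN, 2170 and 1841 in Tg LN, and 1622 and 1891 in Wt LN. Its spleen values were 4021 and 4340 in KI, 2597 in Tg, and 2978 and 2515 in Wt. Every KI library lay above every Tg and Wt library of its tissue. The log2 difference of KI from Wt was 0.59 ± 0.13 in LN (limma adjusted p = 0.00787) and 0.61 ± 0.13 in spleen (limma adjusted p = 0.0119). In LN this call was lost when Wt mouse 1 was left out (0.48, adjusted p = 0.0642), or KI mouse 5 (0.51, 0.0701). The spleen call was lost without Wt mouse 2 (0.49, 0.0929), KI mouse 5 (0.67, 0.0515) or KI mouse 6 (0.56, 0.0863).

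B cell markers also moved with KI, so both genes were set against them within each library. Of 12 B cell markers, 6 were called higher and 0 lower in KI LN, with a median of 0.42, and 3 were called higher and 0 lower in KI spleen, with a median of 0.33. Over all genes 13.8% were called higher and 12.2% lower in KI LN, and 7.63% and 9.21% in KI spleen. Fcgr2b divided by the geometric mean of the 12 markers was 0.224 and 0.235 in KI LN, 0.151 and 0.172 in Tg LN, and 0.148 and 0.132 in Wt LN. In spleen that ratio was 0.283 and 0.258 in KI, 0.184 in Tg, and 0.148 and 0.150 in Wt, so the KI libraries remained apart on this scale too. Fcrla over the same mean was 0.250 and 0.269 in KI LN, 0.271 and 0.236 in Tg LN, and 0.231 and 0.239 in Wt LN, which left little separation. In spleen the Fcrla ratio was 0.284 and 0.275 in KI, 0.223 in Tg, and 0.238 and 0.217 in Wt. These ratios are descriptions without a test, and the part of B cell abundance in either change was not tested.

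**Figure D2:**
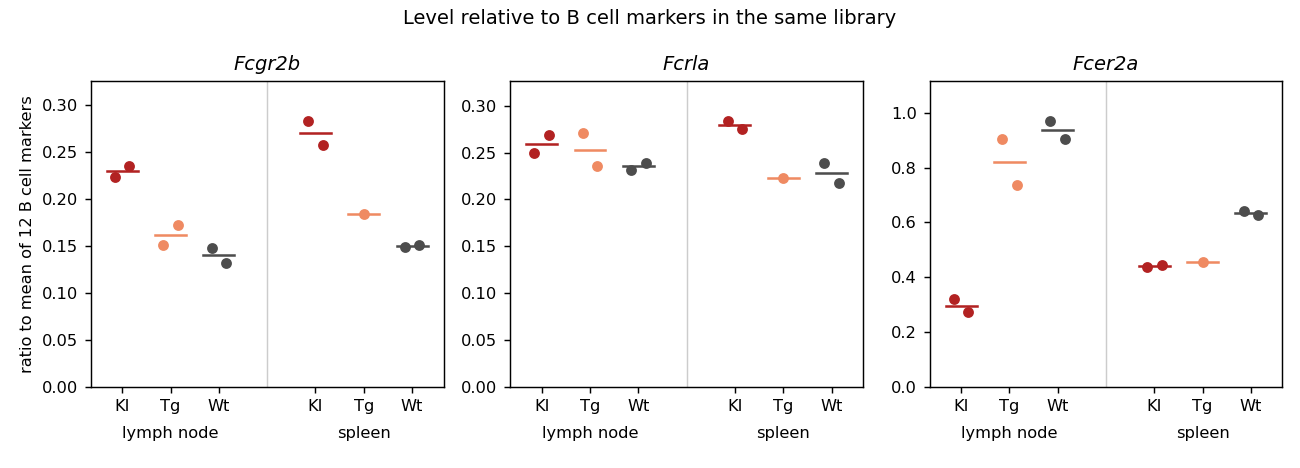
Signal of Fcgr2b, Fcrla and Fcer2a divided by the geometric mean of 12 B cell markers in the same library (linear axis from 0), with 1 point per library and bars for group means. Fcgr2b stays higher in KI of both tissues, Fcrla in LN is nearly level, and Fcer2a in KI LN (0.319 and 0.273) is far below Wt LN (0.971 and 0.904).

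Fcer2a, which encodes CD23, was 2.32-fold lower in KI LN than in Wt LN. It measured 3564 and 2535 in KI LN, 7248 and 5747 in Tg LN, and 6807 and 7161 in Wt LN. In spleen it measured 6173 and 7014 in KI, 5330 in Tg, and 8032 and 7266 in Wt. The KI LN libraries were well below all other LN libraries, whereas in spleen the KI values were only slightly below Wt and the single Tg library was lowest. The log2 difference of KI from Wt was -1.22 ± 0.17 in LN (limma adjusted p = 0.000633) and -0.22 ± 0.17 in spleen (limma adjusted p = 0.405). KI was also below Tg in LN, by -1.102 ± 0.17 (limma adjusted p = 0.00116). The KI effect in LN minus that in spleen was -1.0 ± 0.24, with limma adjusted p = 0.0738, where 0.955% of all genes were called. With the mouse as a replicate block, here a fixed term for each mouse since both tissues came from the same animals, the difference had the same size. Its limma adjusted p was then 0.0355, and the mouse terms raised the calls over all genes from 104 to 596. Without KI LN mouse 5 it was -1.25 with limma adjusted p = 0.0492, and without KI LN mouse 6 it was -0.75 and did not pass.

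Relative to the B cell marker mean, Fcer2a was 0.319 and 0.273 in KI LN, 0.904 and 0.735 in Tg LN, and 0.971 and 0.904 in Wt LN. In spleen the ratio was 0.436 and 0.444 in KI, 0.457 in Tg, and 0.643 and 0.628 in Wt, so on this scale the KI spleens also lay below the Wt spleens. Among 12 follicular B cell markers, a list that includes Fcer2a itself, 8 were called lower and 1 higher in KI LN, with a median of -0.76. In KI spleen 4 of them were called lower and 1 higher, with a median of -0.41. Over all genes 12.2% were called lower and 13.8% higher in KI LN, and 9.21% and 7.63% in KI spleen. Follicular dendritic cell markers, some of which mark cells known to carry CD23, summed to 660 to 729 in KI LN, 1191 to 1326 in Tg LN and 1269 to 1446 in Wt LN over the 5 of 10 that were measured, with 3 called lower; Cxcl13 was not among them. The part of these cells in the Fcer2a difference was not tested.

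Of 9 measured genes tied to CD23 function or cleavage, 2 were called higher and 3 lower in KI LN (median -0.20), and 2 higher and 4 lower in KI spleen (median -0.01), where over all genes 13.8% were called higher and 12.2% lower in LN and 7.63% and 9.21% in spleen. Il4ra, the receptor chain for the cytokine IL-4 that induces CD23, fell with KI by 0.76 ± 0.13 on the log2 scale in LN (limma adjusted p = 0.00171) and by 0.60 ± 0.13 in spleen (limma adjusted p = 0.0107), where the call was lost without Wt mouse 1 (adjusted p = 0.0873) or KI mouse 5 (0.0880). Cr2 (CD21), known in human as a ligand of CD23, fell in KI spleen, with a log2 difference of -1.39 ± 0.16 (limma adjusted p = 0.000664). Cd81, a tetraspanin, rose in KI LN by 1.11 ± 0.12 (limma adjusted p = 0.000161).

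**Figure D3:**
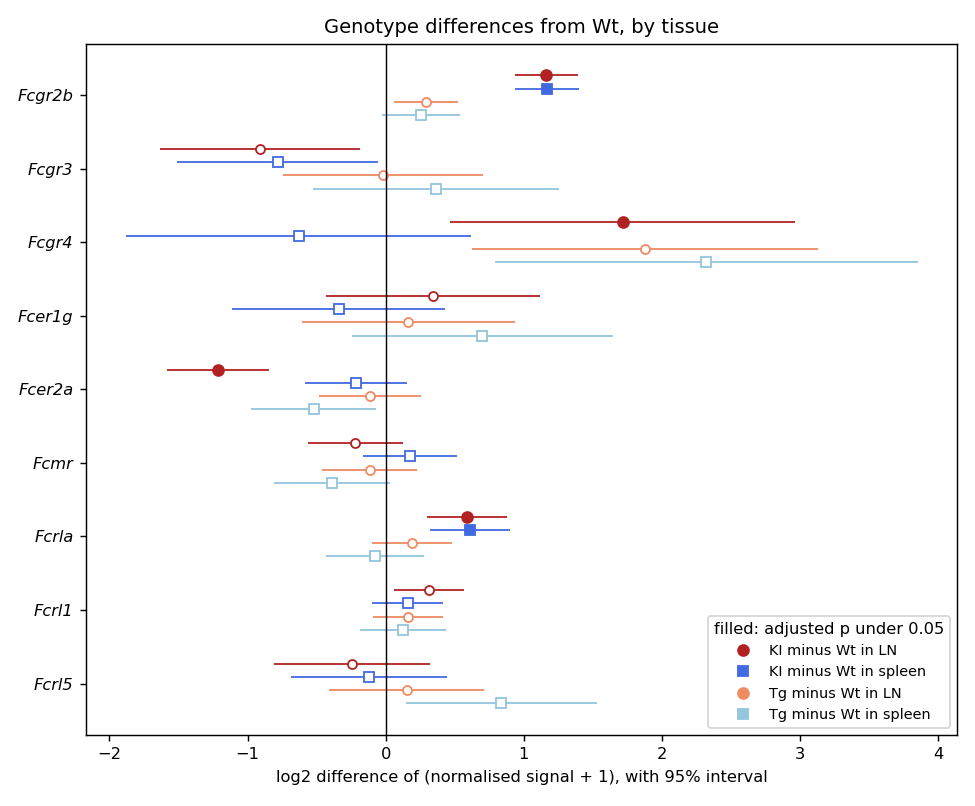
Log2 difference from Wt (horizontal axis, with the 95% interval) for each gene, for KI and Tg in each tissue; filled symbols have a limma adjusted p under 0.05. Fcgr2b and Fcrla are filled in KI of both tissues, Fcer2a in KI LN, and the Fcgr4 intervals are the widest.

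Fcgr3, a low-affinity activating IgG receptor of macrophages, neutrophils and NK cells, measured 34.0 and 32.2 in KI LN, 66.5 and 58.2 in Tg LN, and 74.2 and 53.6 in Wt LN. In spleen it measured 195.5 and 200.6 in KI, 440.0 in Tg, and 233 and 499 in Wt. The KI libraries were the lowest of each tissue and did not overlap Wt. The log2 difference of KI from Wt was -0.91 ± 0.33 in LN (limma adjusted p = 0.0651) and -0.78 ± 0.33 in spleen (limma adjusted p = 0.128), neither of which passed. Fcgr3 in LN rested on 28 to 69 reads per library, and which side of the threshold KI fell on depended on which spleen libraries shared the fit: without Wt spleen mouse 1 or 2 the LN adjusted p was 0.0267 or 0.0303, and without Wt spleen mouse 1 the spleen difference was -1.33 with adjusted p = 0.0378. Without Wt spleen mouse 2 the spleen difference was -0.23 and did not pass.

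Because Fcgr2b and Fcgr3 in KI lay on opposite sides of Wt, the ratio of their signals set the KI libraries apart. That separation follows from the values already given and adds no evidence of its own. Fcgr2b over Fcgr3 was 73.4 and 67.8 in KI LN, 18.2 and 23.0 in Tg LN, and 14.0 and 19.5 in Wt LN. In spleen it was 20.5 and 20.3 in KI, 4.88 in Tg, and 7.96 and 3.48 in Wt. In each tissue both KI libraries were above every other library, while Tg and Wt overlapped. The ratio is not corrected for gene length and serves only to compare libraries; it has no test. In GENCODE M21 9.58% of the distinct 50-base stretches of Fcgr3 transcripts also occur in Fcgr2b, and 2.92% of those of Fcgr2b occur in Fcgr3, so some reads could have been assigned to either gene. Fcgr2b also overlaps the antisense gene Gm38204, and no strand setting is given in the sources used here.

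Fcgr4, an activating receptor for IgG2 antibodies on monocytes, macrophages and neutrophils, was near the detection limit in LN. It measured 14.3 and 6.90 in KI LN (13 and 6 reads), 7.08 and 17.7 in Tg LN (5 and 21 reads), and 1.61 and 3.28 in Wt LN (1 and 3 reads). The fitted KI difference in LN was 1.71 ± 0.57 (limma adjusted p = 0.0468). From pooled reads, the KI to Wt ratio in LN was 4.09, with an exact 95% counting interval of 1.36 to 16.5, and the Tg to Wt ratio was 5.27 (1.83 to 20.8); these intervals cover counting error only. The KI call was lost under edgeR (adjusted p = 0.197), DESeq2 (0.277), a pseudocount of 5 (0.1098) and a fit to LN alone (0.193), and when any of 8 of the 11 libraries was left out. In spleen Fcgr4 measured 131 and 100.3 in KI, 894 in Tg, and 146 and 218 in Wt, and the KI difference of -0.63 ± 0.57 did not pass (limma adjusted p = 0.477). The KI effect in LN minus that in spleen, 2.35 ± 0.80, also failed the adjustment (limma adjusted p = 0.192).

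Fcer1g, the shared gamma chain, measured 137 and 239 in KI LN, 153 and 167 in Tg LN, and 185 and 109 in Wt LN. Spleen values were 522 and 511 in KI, 1065 in Tg, and 506 and 846 in Wt. KI and Wt overlapped in both tissues, with log2 differences of 0.34 ± 0.34 in LN (limma adjusted p = 0.507) and -0.34 ± 0.34 in spleen (limma adjusted p = 0.529). Of 8 measured receptors that pair with the gamma chain, Fcgr3 and Fcgr4 among them, 1 was called higher (Fcgr4) and 1 lower in KI LN, and 0 in KI spleen, with 0 of the 8 higher or lower. The lower one was Pira2, an activating receptor of myeloid cells, at -1.28 ± 0.32 (limma adjusted p = 0.0136), a call lost under edgeR (adjusted p = 0.0571) and DESeq2 (0.0868). Macrophage and monocyte markers showed 10 lower and 2 higher of 21 in KI LN and 0 in either direction in KI spleen. Both lists stand beside 13.8% higher and 12.2% lower of all genes in LN, and 7.63% and 9.21% in spleen. The summed signal of the macrophage and monocyte markers was 6247 to 8097 in KI LN, 7357 to 8156 in Tg LN and 5447 to 7931 in Wt LN. Neutrophil markers summed to 2521 to 7593 in KI spleen, 46234 in the Tg spleen and 6971 to 53517 in Wt spleen. Wt mouse 2, the higher of the Wt spleens, was also the higher Wt spleen for Fcgr3, Fcgr4 and Fcer1g. In Wt LN the neutrophil sum was again higher in mouse 2 (1949 against 163). There Fcgr4 was higher in mouse 2 (3.28 against 1.61), but Fcgr3 (53.6 against 74.2) and Fcer1g (109 against 185) were lower. NK cell markers summed to 2697 to 3565 in KI LN, 3770 to 4892 in Tg LN and 4718 to 5068 in Wt LN. In spleen they summed to 2656 to 3607 in KI, 5039 in Tg and 4597 to 5458 in Wt. Of the 10 NK cell markers, 2 were called lower and 0 higher in KI in each tissue, beside the same shares of all genes. The part of any of these cells in the values of Fcgr3, Fcgr4 and Fcer1g was not tested.

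Fcmr, the IgM receptor, measured 6972 and 5973 in KI LN, 6703 and 7191 in Tg LN, and 6863 and 8234 in Wt LN, a KI difference of -0.22 ± 0.16 (limma adjusted p = 0.335, 95% interval -0.56 to 0.12). In spleen it measured 10131 and 12713 in KI, 7660 in Tg, and 11137 and 9048 in Wt, a KI difference of 0.18 ± 0.16 (limma adjusted p = 0.467). Fcmr therefore overlapped between KI and Wt in both tissues. Relative to the B cell marker mean, Fcmr was 0.624 and 0.644 in KI LN, 0.836 and 0.920 in Tg LN, and 0.979 and 1.04 in Wt LN, so on this scale the KI LN libraries lay below Tg and Wt. In spleen the ratio was 0.715 and 0.805 in KI, 0.657 in Tg, and 0.891 and 0.782 in Wt, where KI and Wt overlapped.

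Fcrl1, a B cell surface protein with activating motifs, measured 2753 and 2278 in KI LN, 2137 and 2361 in Tg LN, and 1922 and 2105 in Wt LN. Its KI difference in LN was 0.32 ± 0.12 (limma adjusted p = 0.0669), which passed after rescaling without immunoglobulin and haemoglobin genes (0.45, adjusted p = 0.0107), after quantile normalisation (0.32, 0.0452) and without KI LN mouse 6 (0.45, 0.0399). Spleen values of Fcrl1 were 3368 and 3534 in KI, 3364 in Tg, and 3104 and 3078 in Wt, a KI difference of 0.16 ± 0.12 (limma adjusted p = 0.372). Relative to the B cell marker mean, Fcrl1 was 0.246 and 0.246 in KI LN, 0.267 and 0.302 in Tg LN, and 0.274 and 0.266 in Wt LN. In spleen the ratio was 0.238 and 0.224 in KI, 0.289 in Tg, and 0.248 and 0.266 in Wt. On this scale, which has no test, the KI libraries of both tissues lay slightly below Tg and Wt.

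Fcrl5, which in mouse marks marginal zone and B-1 B cells, measured 132 and 103 in KI LN, 125 and 190 in Tg LN, and 155 and 124 in Wt LN. Its spleen values were 551 and 409 in KI, 926 in Tg, and 600 and 446 in Wt. KI and Wt overlapped in both tissues, with differences of -0.24 ± 0.25 in LN and -0.12 ± 0.25 in spleen (limma adjusted p = 0.529 and 0.774). Over the B cell marker mean, Fcrl5 was 0.0118 and 0.0112 in KI LN, 0.0155 and 0.0243 in Tg LN, and 0.0221 and 0.0156 in Wt LN, with KI below Wt in LN. In spleen the ratio was 0.0389 and 0.0259 in KI, 0.0794 in Tg, and 0.0480 and 0.0386 in Wt. These ratios have no test.

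The Tg comparison asks the same of BCL2 under the heavy chain 3' regulatory region. Of the 9 genes 0 were called in Tg against Wt in either tissue, where limma called 0% of all genes in LN and 0% in spleen; at an unadjusted p under 0.05 there were 532 genes in LN and 164 in spleen, and in LN edgeR called 0 and DESeq2 28 genes. Fcgr2b was above Wt by 0.29 ± 0.10 in LN (limma adjusted p = 0.960) and by 0.26 ± 0.13 in spleen (limma adjusted p = 0.9998), and no Tg library overlapped Wt. The Tg spleen stood above both Wt spleens for Fcgr4 (894 against 146 and 218) and Fcrl5 (926 against 600 and 446), with differences of 2.32 ± 0.69 and 0.84 ± 0.31 that rest on 1 library. Neutrophil S100a8 in that spleen (6692) was close to that of Wt mouse 2 (6943), in whose spleen Fcgr4 was 218; the part of neutrophils in these values was not tested. Fcer2a in the Tg spleen (5330) was below both Wt spleens (8032 and 7266), a difference of -0.52 ± 0.20 (limma adjusted p = 0.9998). The median difference of the 9 genes was 0.16 in LN and 0.26 in spleen, against -0.02 and 0.00 for all genes.

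Set directly against Tg in LN, KI had 2 of the 9 genes called higher (Fcgr2b and Fcrla) and 1 lower (Fcer2a), where 14.5% of all genes were called higher and 12.2% lower. Fcrla differed by 0.40 ± 0.13 (limma adjusted p = 0.0452), and this call was lost under edgeR (0.39, adjusted p = 0.0946) and DESeq2 (0.39, 0.0691), and without Tg LN mouse 4 or either library of KI mouse 5 or 6 (adjusted p of 0.0631 to 0.237). Fcgr3 was lower in KI by 0.89 ± 0.33 on the log2 scale without passing (limma adjusted p = 0.0683), and passed without Wt spleen mouse 1 (0.0297) or 2 (0.0332). This comparison and that of KI with Wt use the same KI libraries.

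Between tissues, with genotype held in the model, 8 of the 9 genes were called lower in LN than in spleen, where 9.07% of all genes were called lower. Fcgr3 and Fcgr4 reached the 109 that every gene of the table reaches only in spleen (at most 74.2 and 17.7 in LN), so they had to differ and their values here are a description; 6 of the other 7 genes were called lower. Fcgr4 was 31.4-fold lower in LN, Fcgr3 5.90-fold, Fcrl5 4.32-fold and Fcer1g 4.196-fold, with log2 differences of -4.97 ± 0.50, -2.56 ± 0.20, -2.11 ± 0.17 and -2.07 ± 0.25 (SE, 6 LN and 5 spleen libraries) and limma adjusted p between 9.50e-06 and 0.000353. No LN library reached a spleen library for any of these 4 genes; Fcgr4, for example, ranged over 1.61 to 17.7 in LN and 100.3 to 894 in spleen. The other 4 were lower by 0.78 ± 0.06 (Fcgr2b), 0.58 ± 0.08 (Fcrla), 0.55 ± 0.07 (Fcrl1) and 0.50 ± 0.12 (Fcmr) on the log2 scale. The Fcmr call (limma adjusted p = 0.0145) was lost with the mouse as a replicate block (-0.51, adjusted p = 0.0602). Fcer2a was the gene not called, at -0.40 ± 0.22 (limma adjusted p = 0.286).

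**Figure D4:**
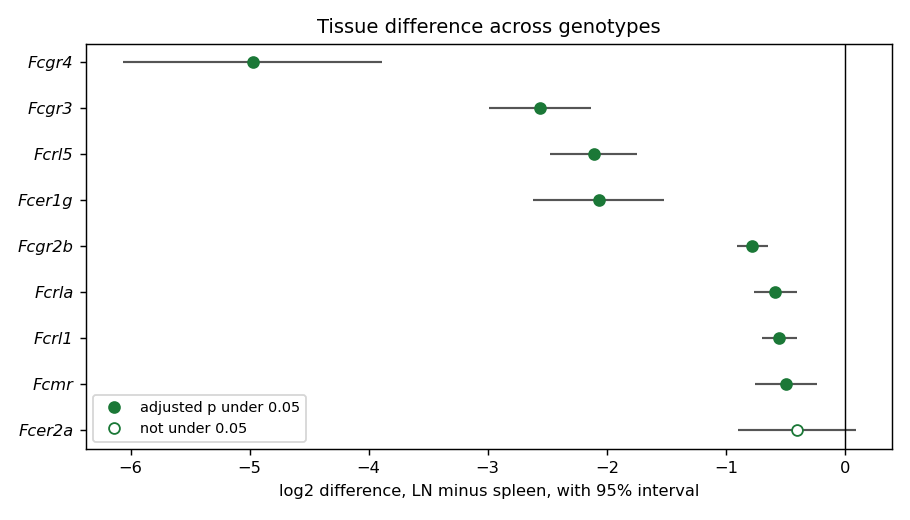
Log2 difference of LN minus spleen (horizontal axis, with the 95% interval) for the 9 genes, from 6 LN and 5 spleen libraries with genotype in the model. Fcgr4, Fcgr3, Fcrl5 and Fcer1g lie at or below -2.07, the other B cell genes lie between -0.40 and -0.78, and Fcer2a (open) did not pass.

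Markers of B cells, macrophages, monocytes and neutrophils, which carry these receptors, were mostly lower in LN, as the receptors were. Some other marker lists were not. In LN against spleen, 12 of 12 B cell markers were called lower (median -0.60), as were 18 of 21 macrophage and monocyte markers (median -2.13, with 1 called higher) and 12 of 13 neutrophil markers (median -4.80). Of the 8 receptors that pair with the gamma chain, Fcgr3 and Fcgr4 among them, 7 were called lower (median -2.76). NK cell markers had 6 of 10 lower and 1 higher (median -1.02). Dendritic cell markers had 2 of 10 lower and 2 higher (median 0.09). Follicular B cell markers, Fcer2a among them, had 2 of 12 lower and 0 higher (median -0.36). Germinal centre markers had 0 of 11 called in either direction (median 0.99). T cell markers went the other way from the B cell, macrophage and neutrophil markers, with 13 of 14 called higher in LN (median 0.91). Over all genes 6.05% were called higher and 9.07% lower in LN than in spleen. Fcgr3 and Fcgr4 reached 109, which every gene of the table reaches in some library, only in spleen, so they had to be lower in LN. The same holds for any other listed gene that reached 109 in spleen but not in LN. Such genes were not counted, so the counts and medians of lower genes are a description. The part of cell composition in the receptor differences was not tested.

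Downstream of the receptors, of 25 genes of activating ITAM signalling, 9 were called higher and 6 lower in KI LN (median -0.03), and 4 higher and 6 lower in KI spleen (median -0.15), beside 13.8% higher and 12.2% lower of all genes in LN and 7.63% and 9.21% in spleen. In LN, Prkcd, a protein kinase C isoform acting below the B cell receptor, rose by 1.095 ± 0.10 (limma adjusted p = 6.64e-05), and Blnk, the B cell linker of Syk, rose by 0.92 ± 0.13 (limma adjusted p = 0.000638). Cd247, the zeta chain of the T cell receptor, fell by 1.04 ± 0.14 in LN (limma adjusted p = 0.000512) and by 1.13 ± 0.14 in spleen (limma adjusted p = 0.000810). T cell markers also fell in KI, for 13 of 14 genes in LN and 12 of 14 in spleen, and their part in the values of Cd247 and of Cd5 was not tested.

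Of 21 genes of inhibitory ITIM signalling, 5 were called higher and 3 lower in KI LN (median -0.04), and 5 higher and 2 lower in KI spleen (median -0.05), against the same shares of all genes (13.8% and 12.2% in LN, 7.63% and 9.21% in spleen). Siglecg, an inhibitory sialic acid receptor of B cells, rose in LN by 0.77 ± 0.13 (limma adjusted p = 0.00164), and the adaptor Dok3 by 0.76 ± 0.13 (limma adjusted p = 0.00246). Cd5, carried by T cells and B-1 cells, fell by 1.06 ± 0.12 in LN and by 0.84 ± 0.12 in spleen (limma adjusted p = 0.000165 and 0.00146). In spleen the inhibitory receptor Ceacam1 rose by 1.11 ± 0.17 (limma adjusted p = 0.00285), and Lilrb4a, an inhibitory receptor of myeloid and plasma cells, fell by 2.44 ± 0.36 (limma adjusted p = 0.00381).

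Among other antibody receptors, 6 of 13 listed genes were measured, with 1 higher and 1 lower in KI LN and 0 in KI spleen in either direction. These counts stand beside 13.8% higher and 12.2% lower of all genes in LN, and 7.63% and 9.21% in spleen. Fcgrt, the neonatal Fc receptor that protects IgG from breakdown, fell in KI LN by 0.96 ± 0.15 (limma adjusted p = 0.00108). Trim21, the cytosolic antibody receptor, rose by 0.50 ± 0.17 (limma adjusted p = 0.0462), a call lost under edgeR (adjusted p = 0.129) and DESeq2 (0.0745). The mast cell IgE receptor genes Fcer1a and Ms4a2 were not analysed here.

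Likeness over the 11 libraries was described by Pearson's r of log2 signal; the libraries share mice, tissues and the normalisation, so r carries no test. Fcgr2b and Fcrla had r = 0.9502, and Fcgr4 and Fcrl5, Fcgr3 and Fcer1g, and Fcgr4 and Fcer1g had r of 0.943, 0.924 and 0.926. Fcrl1 had r of 0.917 with Fcgr4, 0.854 with Fcrl5, 0.859 with Fcrla and 0.824 with Fcgr2b. Fcgr2b and Fcer2a had r = -0.245. The genes of the whole table most like Fcgr2b were Myo1c (0.988), Acox3 (0.985) and Stx17 (0.985), and those most like Fcrla were Scamp2 (0.980), Btk (0.973) and Asb1 (0.971). Fcgr3 was closest to Tnfaip2, Lrrc25 and Nfam1 (0.983 to 0.986), Fcgr4 to S1pr3 and Cd244a (0.970 to 0.980), and Fcer1g to S100a6, Fgr and Tmem40 (0.974 to 0.984). Fcrl1 was closest to Aldh2, Unc93b1 and Vav2 (0.974 to 0.982), Fcrl5 to Grk3, Tm6sf1 and Cd14 (0.970 to 0.974), and Fcmr to St3gal1, Cacna1i and Xylt1 (0.939 to 0.969). Fcer2a had the weakest likeness, to Zfp831 (0.929), Slc6a6 (0.907) and Rcan1 (0.906).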

How the data were processed

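RNA-seq libraries of lymph node and spleen from 6 mice were used. As deposited, values are a normalised signal (10885 genes, 11 libraries); they show that the authors divided read counts by 1 factor per library. Each value came to a whole number of such steps within 0.05 reads, from which reads were recovered. The highest library of any gene was at 109 or above. The submitters' processing notes name FastQC 0.11.5, STAR 2.5, featureCounts, Subread 1.4.6, DESeq2 1.26.0 and build GRCm39, with no roles. The annotation release and strand setting are not given in the sources used here.

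From there, log2(value + 1) was fitted with limma 3.58.1 (trend, robust) in R 4.3.3, using 6 group means over all 11 libraries, or genotype plus tissue for the tissue comparison, with Benjamini-Hochberg adjustment over all genes. Fold changes are on the log2(value + 1) scale and understate changes of low genes. The step was tested on simulated data. As alternatives, edgeR 4.0.16 and DESeq2 1.42.0 were run on the recovered reads of LN only. Other alternatives were the pseudocount (0.1 and 5), a mean of at least 100, rescaling without 196 immunoglobulin and haemoglobin genes, quantile normalisation, fits to 1 tissue, the mouse as replicate block and leaving out each library. Spleen and LN of a mouse carry the same number in the labels, and deviations from group means correlated at 0.403 in Wt and 0.900 in KI. For comparisons within a tissue, the replicate block was a correlation between libraries of a mouse, with a consensus of 0.0168. For LN minus spleen and the tissue difference of the KI effect, each mouse had its own fixed term instead. The number of libraries limits the precision of every value.

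All members were reported. Of other lists, up to 3 called genes with the smallest p per KI comparison could be named, or 1 uncalled, and for each member the 3 genes with the highest Pearson's r, leaving out antigen receptor segments and unnamed genes; 1 gene that this rule names is not reported here. The members and lists were chosen with earlier results of these data known. GENCODE M21 gave exon lengths and RefSeq (GRCm38.p6) gave promoters.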

Additional observations from a re-analysis of the deposited data

Results flagged for a closer look

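For Fcer2a, the KI effect in LN minus that in spleen was -1.0 on the log2 scale, and it passed with the mouse as replicate block but not as first fitted. The limma adjusted p was 0.0355 with the mouse as replicate block and 0.0738 without it. Both KI LN libraries (3564 and 2535) were below both Wt LN libraries (6807 and 7161), while the KI spleens (6173 and 7014) were closer to the Wt spleens (8032 and 7266).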

How the results depend on the processing

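Across these alternatives the KI difference of Fcgr2b in both tissues and the lower Fcer2a in KI LN passed under every setting that could be run: Fcgr2b between 1.07 and 1.30 in LN and between 1.12 and 1.261 in spleen, Fcer2a between -1.46 and -0.97. The count of genes called higher moved between 1 and 4 for KI in LN, 1 and 2 for KI in spleen, and 1 and 2 for KI against Tg when single libraries were left out. It was 1 for KI against Tg under edgeR, DESeq2 and the fit to 1 tissue, where Fcrla was lost. The count called lower moved between 1 and 2 for KI in LN and for KI against Tg, and between 0 and 1 for KI in spleen and for the tissue difference of the KI effect. With the mouse as replicate block that last count was 1 (Fcer2a), Fcmr was lost between tissues, and no other call on the 9 genes changed. Values that changed sign were uncalled, though not all were small (Fcgr4 in KI against Tg lay within -0.77 to 0.44), and the cause was not tested. Leaving out single libraries gave, in KI against Wt, -0.054 to 0.74 (Fcer1g, LN), -0.71 to 0.030 (Fcer1g, spleen) and -0.34 to 0.092 (Fcrl5, spleen). In Tg against Wt in LN it gave -0.28 to 0.054 (Fcer2a), -0.25 to 0.017 (Fcmr), -0.15 to 0.45 (Fcrl5), -0.21 to 0.54 (Fcer1g) and -0.25 to 0.21 (Fcgr3), and in spleen -0.20 to 0.047 (Fcrla) and -0.18 to 0.91 (Fcgr3). In KI against Tg it gave -0.22 to 0.0061 (Fcmr), -0.22 to 0.58 (Fcer1g) and -0.77 to 0.44 (Fcgr4). The KI effect in LN minus spleen lay within -0.10 to 0.092 (Fcgr2b), -0.14 to 0.10 (Fcrla), -0.34 to 0.094 (Fcrl5) and -0.68 to 0.42 (Fcgr3). Rescaling without immunoglobulin and haemoglobin genes gave 0.023 for Fcgr3 (Tg in LN) and 0.038 and 0.023 for the tissue difference of Fcgr2b and Fcrla; quantile normalisation gave 0.026 for Fcmr and 0.16 for Fcgr4 (KI against Tg). Rescaled, the calls of KI against Tg over all genes were 2046 higher and 1032 lower, against 1580 and 1330. Where a group was left with 1 library, that library was assumed to vary like the others. Fcgr4 and Fcgr3 in LN are limited by read depth.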
